A study of Mus musculus with 30 samples.

Results

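The SIBLING and Gla matrix genes of bone were followed in the fracture callus of lean and diet-induced obese (DIO) mice. The set was fixed by name and held 8 of the 43629 genes in the deposited count table, all of which were found there by Ensembl identifier. It comprised Spp1, Ibsp, Dmp1 and Mepe of the SIBLING family, the osteocalcin copies Bglap, Bglap2 and Bglap3, and the matrix Gla gene Mgp. The tissue was callus of male C57BL/6J mice that were 20 weeks old when the right tibia was cut and fixed with an intramedullary nail. DIO mice had been fed a high-fat diet and lean mice a low-fat diet, and the labels name no transgene or drug for either group. Each of the 30 libraries came from 1 callus, with 3 mice per diet and day. The diets could be compared on 4 days after fracture (d3, d5, d7 and d10), and DIO callus was also taken on d14 and d21. Lean callus of d14 and d21 was not analysed here. The model was limited to males of 1 strain, and a callus mixes cartilage, bone, marrow, vessel and blood cells, so that fewer cells of a type and less RNA per cell cannot be told apart.

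SIBLING proteins are acidic, secreted phosphoproteins that carry an RGD motif for integrins and bind calcium and collagen in mineralizing matrix. Osteopontin, made by Spp1, anchors osteoclasts and restrains crystal growth, bone sialoprotein, made by Ibsp, promotes nucleation of mineral, and Dmp1 and Mepe are made largely by osteocytes and take part in phosphate handling. Osteocalcin and matrix Gla protein contain glutamates that vitamin K-dependent carboxylation turns into calcium-binding Gla residues. Osteocalcin is a product of mature osteoblasts, whereas matrix Gla protein comes from chondrocytes and vascular cells and inhibits calcification.

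Total counts per library ran from 13247122 to 26365620, with a median of 16854427, and levels are given as CPM, the share of a library's counts scaled to a common total, adjusted with TMM factors. The 14 osteoblast and osteocyte markers of a fixed list summed to between 26461 and 98154 CPM in the libraries, with 12 of the 14 at 1 CPM or more on average in every group. Summed chondrocyte markers were uneven in lean callus on d10, at 78158, 19689 and 19496 CPM, and the first of these 3 libraries is named wherever a result rests on it. A gene was called changed at an adjusted p under 0.05 in edgeR's quasi-likelihood test over all genes tested. Shares of all genes refer to these calls or to groups without overlap. They were not counted for DESeq2 or for unadjusted p, so numbers of members given for those have no background to be set against.

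The 4 SIBLING genes stand in a row on the plus strand of chromosome 5 in GRCm38, within 238.4 kb: Dmp1 (ENSMUSG00000029307) at chr5:104202613-104214102, Ibsp (ENSMUSG00000029306) at chr5:104299171-104311469, Mepe (ENSMUSG00000053863) at chr5:104325329-104338611 and Spp1 (ENSMUSG00000029304) at chr5:104435118-104441050. Dspp, the dentin member of the family, lies next to Dmp1 and was close to 0 throughout, with at most 0.117 CPM in any library. The osteocalcin copies lie within 15.8 kb on the minus strand of chromosome 3: Bglap3 (ENSMUSG00000074489) at chr3:88368616-88372743, Bglap2 (ENSMUSG00000074486) at chr3:88377736-88378699 and Bglap (ENSMUSG00000074483) at chr3:88383501-88384464. Mgp (ENSMUSG00000030218) is at chr6:136872435-136875823 on the minus strand. Exons of Spp1 share 309 bases with the model Gm42793 on the same strand, and no other member overlaps an annotated gene.

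The coding sequences of the osteocalcin copies are shown because their likeness decides how far reads can be assigned to one of them. They were taken from GENCODE M21 transcripts of GRCm38, each 285 bases long without the stop codon, in the direction of transcription, and capitals mark bases that differ from Bglap.
Bglap: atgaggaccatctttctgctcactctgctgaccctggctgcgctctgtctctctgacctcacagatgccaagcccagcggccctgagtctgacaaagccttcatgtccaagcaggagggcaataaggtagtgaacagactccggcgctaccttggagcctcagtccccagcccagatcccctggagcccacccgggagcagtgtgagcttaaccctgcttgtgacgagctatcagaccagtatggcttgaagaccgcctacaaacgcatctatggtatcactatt
Bglap2: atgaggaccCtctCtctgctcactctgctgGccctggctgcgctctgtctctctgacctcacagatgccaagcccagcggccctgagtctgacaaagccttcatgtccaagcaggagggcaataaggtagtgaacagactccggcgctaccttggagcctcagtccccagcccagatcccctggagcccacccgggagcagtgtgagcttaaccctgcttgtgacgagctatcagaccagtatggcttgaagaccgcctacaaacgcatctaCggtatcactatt
Bglap3: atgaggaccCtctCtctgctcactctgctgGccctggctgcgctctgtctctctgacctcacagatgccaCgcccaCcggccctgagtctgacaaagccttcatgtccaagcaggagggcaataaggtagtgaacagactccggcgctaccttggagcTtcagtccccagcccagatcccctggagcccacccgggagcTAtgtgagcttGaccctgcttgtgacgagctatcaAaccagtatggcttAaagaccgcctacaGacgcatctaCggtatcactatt
Bglap2 differed from Bglap at 4 bases (98.6% identity) and Bglap3 at 13 (95.4%), whereas Mgp shared 49.7% with Bglap. Of all stretches of 53 bases, the length of 1 read of a pair, 73.7% of the Bglap transcript, 86.6% of the Bglap2 transcript and 22.3% of the Bglap3 transcript also occurred in another copy. How the counting treated such reads is not given in the sources used here, so values of single osteocalcin copies are uncertain. The sum of the 3 copies is given beside them for part of the comparisons. Counts of called members take Bglap and Bglap2 as separate members, although they are not independent of each other. Reads left out as shared would be missing from the sum too, so osteocalcin levels set against those of other members are uncertain as well. Spp1 shared 1.84% of its stretches with Gm42793 and the other members none.

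Promoters are shown for the matched members that rose from d7 to d10 in DIO callus, 1 for each, with that of Ibsp, which was not called there, beside them. RefSeq promoters of GRCm38.p6, from 250 bases before to 50 after a start, were matched for 6 of the 8 members, with 10 promoters in all. Capitals mark the letters of the RUNX core, ACCACA or TGTGGT on the other strand.
Bglap, minus strand of chr3:88384417-88384716: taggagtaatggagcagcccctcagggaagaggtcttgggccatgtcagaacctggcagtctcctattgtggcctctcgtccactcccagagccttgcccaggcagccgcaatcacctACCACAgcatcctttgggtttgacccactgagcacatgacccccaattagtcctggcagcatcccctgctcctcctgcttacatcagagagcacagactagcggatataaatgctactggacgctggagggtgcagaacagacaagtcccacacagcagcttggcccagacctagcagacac
Mepe, plus strand of chr5:104325079-104325378: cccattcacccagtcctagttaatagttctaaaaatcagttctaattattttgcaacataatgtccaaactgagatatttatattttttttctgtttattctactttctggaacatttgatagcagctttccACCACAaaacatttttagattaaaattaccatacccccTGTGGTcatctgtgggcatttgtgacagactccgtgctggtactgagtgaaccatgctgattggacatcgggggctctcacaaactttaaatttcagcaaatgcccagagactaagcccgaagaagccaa
Spp1, first start, plus strand of chr5:104434861-104435160: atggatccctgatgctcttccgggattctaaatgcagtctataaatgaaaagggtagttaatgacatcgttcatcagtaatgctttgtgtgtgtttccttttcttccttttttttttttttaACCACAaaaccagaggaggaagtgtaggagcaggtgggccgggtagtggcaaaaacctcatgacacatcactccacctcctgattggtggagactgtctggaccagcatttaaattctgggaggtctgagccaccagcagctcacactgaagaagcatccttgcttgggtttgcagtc
Dmp1, second start, plus strand of chr5:104202367-104202666: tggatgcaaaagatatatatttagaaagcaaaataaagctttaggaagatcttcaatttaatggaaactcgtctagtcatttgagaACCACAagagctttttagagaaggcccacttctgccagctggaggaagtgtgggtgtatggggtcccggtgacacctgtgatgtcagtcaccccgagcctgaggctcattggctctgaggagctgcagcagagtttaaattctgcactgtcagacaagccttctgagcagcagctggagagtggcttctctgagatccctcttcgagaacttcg
Ibsp, plus strand of chr5:104299037-104299336: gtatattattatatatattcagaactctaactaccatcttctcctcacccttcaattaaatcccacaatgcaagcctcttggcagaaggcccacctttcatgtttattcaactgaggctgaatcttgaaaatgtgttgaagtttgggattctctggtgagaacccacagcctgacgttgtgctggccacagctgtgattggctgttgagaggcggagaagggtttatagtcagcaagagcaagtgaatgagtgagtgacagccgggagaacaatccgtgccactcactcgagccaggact
Bglap3, first start, minus strand of chr3:88372692-88372991: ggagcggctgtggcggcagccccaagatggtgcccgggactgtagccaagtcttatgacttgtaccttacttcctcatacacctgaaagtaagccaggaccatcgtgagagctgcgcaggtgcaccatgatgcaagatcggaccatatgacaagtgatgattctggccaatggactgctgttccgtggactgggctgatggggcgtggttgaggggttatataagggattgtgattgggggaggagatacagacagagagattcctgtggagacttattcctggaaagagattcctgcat
The RUNX letters occurred in 4 of the 10 promoters and in 16.8% of all 32851 promoters, once each in Bglap, Spp1 and Dmp1 and at 2 places in Mepe. The 3 promoters of Bglap3, the first of Dmp1, the second of Spp1 and that of Ibsp held none, so members with and without the letters were among those that rose. The letters CCAAT or ATTGG occurred in 9 of the 10 and in 37.4% of all, and TATAAA or TTTATA in 4 of the 10 and in 13.6% of all. The 10 promoters share genes and are few, and a match of letters is a description of the sequence only.

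Ibsp and Spp1 took most of the reads on the set. Together they held between 64.8% and 91.4% of its counts, and the 8 genes held between 0.430% and 1.97% of all counts in a library. Per kilobase of transcript, Ibsp led on d3 in lean callus with 1630 ± 302 CPM per kb (SD, n = 3), ahead of Spp1 with 923 ± 96.8, Mgp with 407 ± 156, Bglap2 with 116 ± 117, Dmp1 with 103 ± 49.7, Mepe with 67.7 ± 26.3 and Bglap with 65.4 ± 58.6 CPM per kb. The last 4 of these did not differ beyond their spread. In DIO callus on d21 the order was another one, with Spp1 at 2740 ± 389 CPM per kb, Bglap2 at 1223 ± 134, Bglap at 963 ± 110, Ibsp at 709 ± 43.6, Mepe at 349 ± 24.5, Dmp1 at 256 ± 3.44 and Mgp at 170 ± 74.6 CPM per kb. Bglap3 was the lowest member in every group, with at most 2.52 ± 0.663 CPM per kb.

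**Figure D1:**
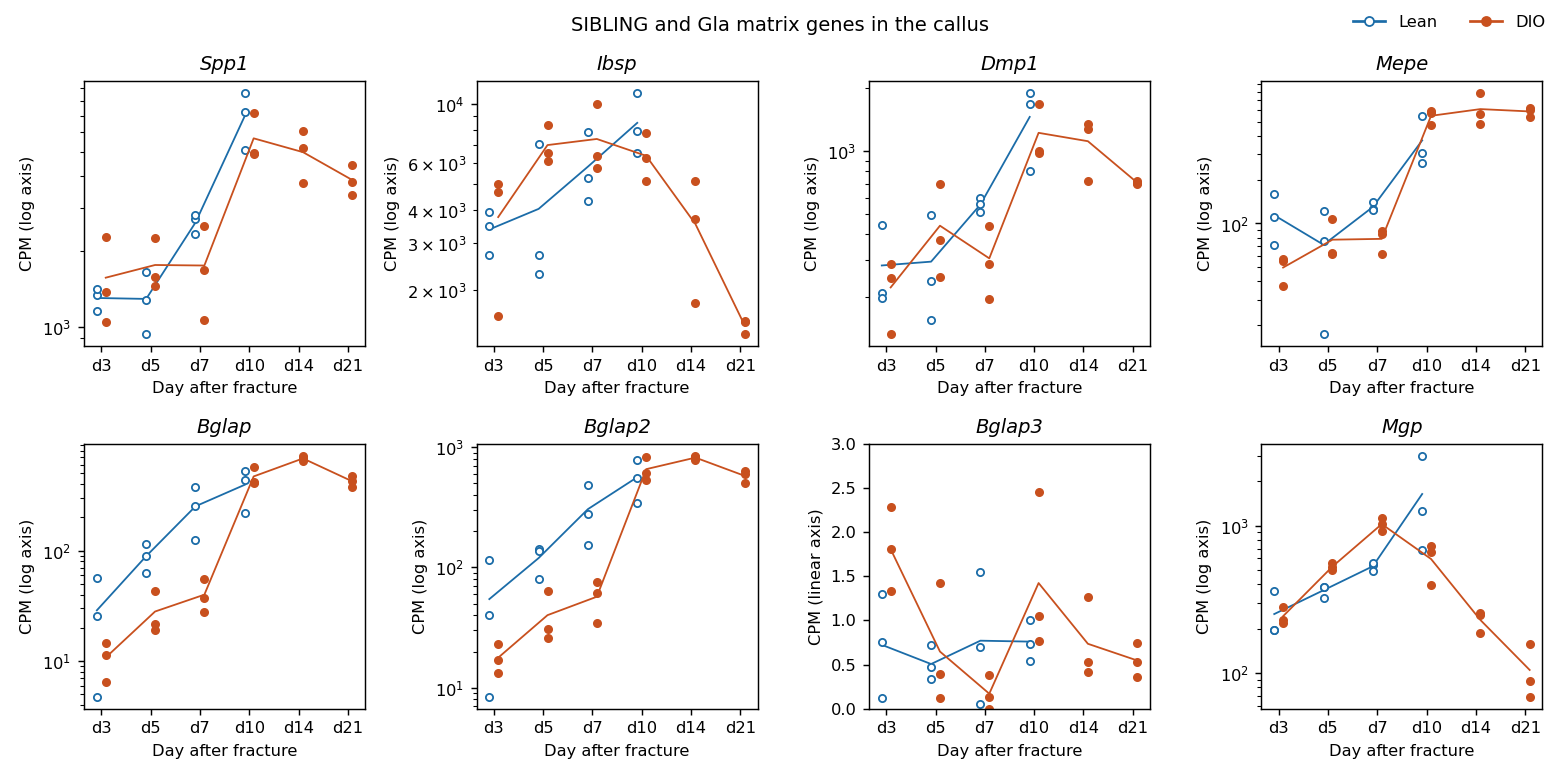
Levels of the 8 genes by day after fracture, in CPM on a log axis (linear for Bglap3), with 1 point per library and lines through the means of 3 mice (lean open blue, DIO filled orange). Means of Bglap and Bglap2 were higher on each later lean day, although no single lean step was called for them. In DIO callus their largest step was from d7 to d10. In DIO callus Mgp was lower after d7 and Ibsp after d10.

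Osteocalcin showed the widest range of the set. Bglap stood at 4.75, 25.6 and 56.01 CPM in the 3 lean libraries of d3, at 62.4, 115 and 89.7 CPM on d5, at 252, 379 and 124 CPM on d7 and at 219, 438 and 527 CPM on d10. In DIO callus Bglap stood at 11.4, 14.4 and 6.48 CPM on d3, at 43.3, 19.2 and 21.6 CPM on d5 and at 37.2, 27.7 and 54.8 CPM on d7. Every DIO library of d5 and d7 thus lay below every lean library of the same day. On d10 the DIO libraries reached 422, 574 and 413 CPM, which overlapped the lean range, and they stood at 684, 722 and 644 CPM on d14 and at 374, 471 and 425 CPM on d21. The highest DIO mean, on d14, was 63.5 times the lowest, on d3, and the highest lean mean, on d10, was 13.7 times the lean mean of d3. Bglap2 ran alongside, with more counts than Bglap in all 30 libraries and a ratio of 1.11 to 2.06.

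Bglap3 was barely counted. Its counts ran from 0 to 44 in a library, with at least 3 in 25 of the 30 libraries, and made up at most 6.34% of the counts on the osteocalcin copies. In DIO callus the counts were 38, 44 and 22 on d3, 6, 0 and 2 on d7 and 10, 34 and 15 on d10. The library with 0 counts could have held up to 0.221 CPM, the level of 3 counts. Bglap3 shares stretches with the far more abundant copies, so that reads from them cannot be told apart in these counts.

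Mgp took another course than osteocalcin. It stood at 195, 196 and 362 CPM in lean callus on d3, at 384, 325 and 385 CPM on d5, at 544, 494 and 554 CPM on d7 and at 2988, 1262 and 679 CPM on d10. The first d10 library, the one rich in chondrocyte markers, held more than the other two together. In DIO callus Mgp stood at 220, 228 and 281 CPM on d3, at 555, 503 and 526 CPM on d5, at 1022, 928 and 1127 CPM on d7 and at 397, 724 and 663 CPM on d10. It then stood at 186, 254 and 246 CPM on d14 and at 88.6, 157 and 68.9 CPM on d21, below every earlier DIO library. DIO callus was highest on d7 and lean callus on d10, the last lean day sampled.

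Spp1 stood at 1334, 1153 and 1420 CPM in lean callus on d3, at 1283, 934 and 1656 CPM on d5, at 2702, 2340 and 2793 CPM on d7 and at 8623, 5117 and 7212 CPM on d10. Its DIO libraries stood at 2289, 1380 and 1042 CPM on d3, at 2259, 1455 and 1581 CPM on d5, at 2528, 1681 and 1062 CPM on d7 and at 4957, 4914 and 7169 CPM on d10. The lean libraries of d7 already lay above those of d3 and d5, whereas the DIO libraries of d3, d5 and d7 overlapped. On d14 and d21 DIO callus held 5001 ± 1165 and 3866 ± 548 CPM (SD, n = 3).

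Ibsp was high from the first day on. Lean callus held 3372 ± 624 CPM on d3, 4030 ± 2649 on d5, 5811 ± 1839 on d7 and 8491 ± 2268 CPM on d10 (SD, n = 3), and neighbouring days overlapped throughout. DIO callus held 3753 ± 1881 CPM on d3, 7004 ± 1181 on d5, 7385 ± 2305 on d7 and 6382 ± 1321 CPM on d10. After that its level was lower, with 3679, 1784 and 5136 CPM on d14 and 1362, 1522 and 1515 CPM on d21. The d21 libraries lay below every other library of either diet.

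The osteocyte genes Dmp1 and Mepe were low until d7 and high from d10 on. Dmp1 held 284 ± 137 CPM in lean callus on d3, 296 ± 177 on d5, 555 ± 43.1 on d7 and 1457 ± 577 CPM on d10 (SD, n = 3). In DIO callus it held 223 ± 80.2, 440 ± 228 and 307 ± 121 CPM on the first 3 days, 1223 ± 400 CPM on d10, 1115 ± 343 on d14 and 707 ± 9.51 CPM on d21. Mepe stood at 71.4, 111 and 160 CPM in lean callus on d3, at 17.4, 75.3 and 122 CPM on d5, at 140, 127 and 123 CPM on d7 and at 258, 306 and 551 CPM on d10. Its DIO libraries stood at 37.3, 57.1 and 55.1 CPM on d3, at 108, 62.9 and 61.3 CPM on d5, at 88.2, 84.8 and 62.2 CPM on d7 and at 573, 595 and 477 CPM on d10. All lean libraries of d3 and d7 lay above all DIO libraries of the same day, and on d10 the ranges overlapped. On d14 and d21 DIO callus held 610 ± 157 and 588 ± 41.2 CPM of Mepe, close to its level on d10.

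Whether matrix genes rose as lean callus matured was tested between days. From d3 to d10, 7 of the 8 members rose, all but Bglap3, against 29.3% of 16471 genes called in either direction, 15.2% higher and 14.1% lower. Bglap rose 14.0-fold (log2 fold change 3.81 ± 0.72 SE, edgeR adjusted p = 0.00305), Bglap2 10.5-fold (3.39 ± 0.75, edgeR adjusted p = 0.00649) and the summed copies 11.6-fold (3.54 ± 0.74, edgeR adjusted p = 0.00511). Mgp rose 6.71-fold (2.75 ± 0.45, edgeR adjusted p = 0.00158), and the change without the first d10 library was 1.99 on the log2 scale and still past the threshold. Spp1 rose 5.49-fold (2.46 ± 0.26, edgeR adjusted p = 1.554e-04), Dmp1 5.24-fold (2.39 ± 0.46, edgeR adjusted p = 0.00332), Mepe 3.34-fold (1.74 ± 0.53, edgeR adjusted p = 0.0292) and Ibsp 2.58-fold (1.37 ± 0.41, edgeR adjusted p = 0.0273). The call for Mepe was lost without the first or second d3 library or the third d10 library (edgeR adjusted p up to 0.104), and that for Ibsp without the first or second d3 library or the first d10 library (up to 0.101). For Bglap3 the value was 0.09 ± 0.86.

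Single steps between lean days were seldom called. None of the 8 members passed from d3 to d5 (0.449% of all genes called, 0.443% higher and 0.00607% lower, 1 member at an unadjusted p under 0.05, none by DESeq2) or from d5 to d7 (0% of all genes, 2 members unadjusted, 1 by DESeq2). From d7 to d10, 1 member was called, against 2.73% of all genes, 1.09% higher and 1.65% lower, and this was Spp1, which rose 2.70-fold (1.43 ± 0.25, edgeR adjusted p = 0.0225). The call was lost when any lean d7 library or the first d10 library was left out (edgeR adjusted p up to 0.0973). DESeq2 called 4 members at this step, Spp1, Dmp1, Mepe and Mgp. The shares of all genes in this paragraph are edgeR's, and none was counted for DESeq2 or for unadjusted p.

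In DIO callus the step from d7 to d10 held more called members than any other step between neighbouring days. Here 6 of 8 members rose, against 13% of 16995 genes called in either direction, 6.01% higher and 7.01% lower. Bglap rose 11.8-fold (3.56 ± 0.34, edgeR adjusted p = 3.804e-06), Bglap2 11.5-fold (3.52 ± 0.34, edgeR adjusted p = 4.17e-06) and the summed copies 11.6-fold (3.53 ± 0.34, edgeR adjusted p = 3.888e-06). Mepe rose 7.00-fold (2.81 ± 0.25, edgeR adjusted p = 3.722e-06), Dmp1 3.98-fold (1.99 ± 0.39, edgeR adjusted p = 0.00222) and Spp1 3.23-fold (1.69 ± 0.34, edgeR adjusted p = 0.00258). Bglap3 rose 7.77-fold (2.96 ± 0.90, edgeR adjusted p = 0.0334) from very few counts, and its call was lost without d7 library 2 or 3 or d10 library 2 (edgeR adjusted p up to 0.160). Ibsp and Mgp stood apart from the rest, with log2 fold changes of -0.21 ± 0.39 and -0.79 ± 0.26 (edgeR adjusted p = 0.787 and 0.0544). The groups did not overlap for 7 of 8 members, against 27.1% of all genes, and of these only Mgp was lower on d10. DESeq2 called Mgp lower at this step (adjusted p = 0.0218).

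Before d7 fewer members moved. From d3 to d5, Bglap rose 2.60-fold (1.38 ± 0.32, edgeR adjusted p = 0.0313) and Mgp 2.17-fold (1.12 ± 0.26, edgeR adjusted p = 0.0349) in DIO callus, 2 of 8 members against 1.68% of all genes, 1.39% higher and 0.282% lower. Leaving out the first or the third d3 library or the first d5 library ended the call for Bglap (edgeR adjusted p up to 0.175), and leaving out any of the 6 libraries ended that for Mgp (up to 0.169). In a fit of all 30 libraries neither gene passed (edgeR adjusted p = 0.237 and 0.130). The osteocalcin sum was not called at this step (1.18 ± 0.31, edgeR adjusted p = 0.0638). From d5 to d7 no member was called, against 0.0177% of all genes. Mgp alone had an unadjusted p under 0.05 and was called by DESeq2, and no share of all genes was counted for either measure.

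After d10 the members called were Mgp and Ibsp. From d10 to d14, 1 of 8 members changed, against 0.759% of all genes, 0.583% higher and 0.177% lower. Mgp fell 2.60-fold (-1.38 ± 0.26, edgeR adjusted p = 0.0307), a call lost without the second or the third d10 library or the first or second d14 library (edgeR adjusted p up to 0.181) and in the fit of all 30 libraries (0.106). From d14 to d21, 2 of 8 members changed, near the 19.6% of all genes called, 10.6% higher and 9.03% lower. Mgp fell 2.19-fold (-1.13 ± 0.26, edgeR adjusted p = 0.00769), and Ibsp fell 2.41-fold (-1.27 ± 0.39, edgeR adjusted p = 0.0327). The call for Ibsp was lost without the first or the third d14 library or any d21 library (edgeR adjusted p up to 0.159). The groups did not overlap for 5 members, all lower on d21, against 34.6% of all genes. Besides Mgp and Ibsp these were Bglap (-0.69 ± 0.30, edgeR adjusted p = 0.116), Dmp1 (-0.66 ± 0.38, edgeR adjusted p = 0.225) and Bglap2 (-0.51 ± 0.31, edgeR adjusted p = 0.254). At this last step 5 of 7 erythroid and marrow markers rose and 5 of 12 tested osteoblast and osteocyte markers fell, and their part in the lower shares of matrix genes was not tested.

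**Figure D2:**
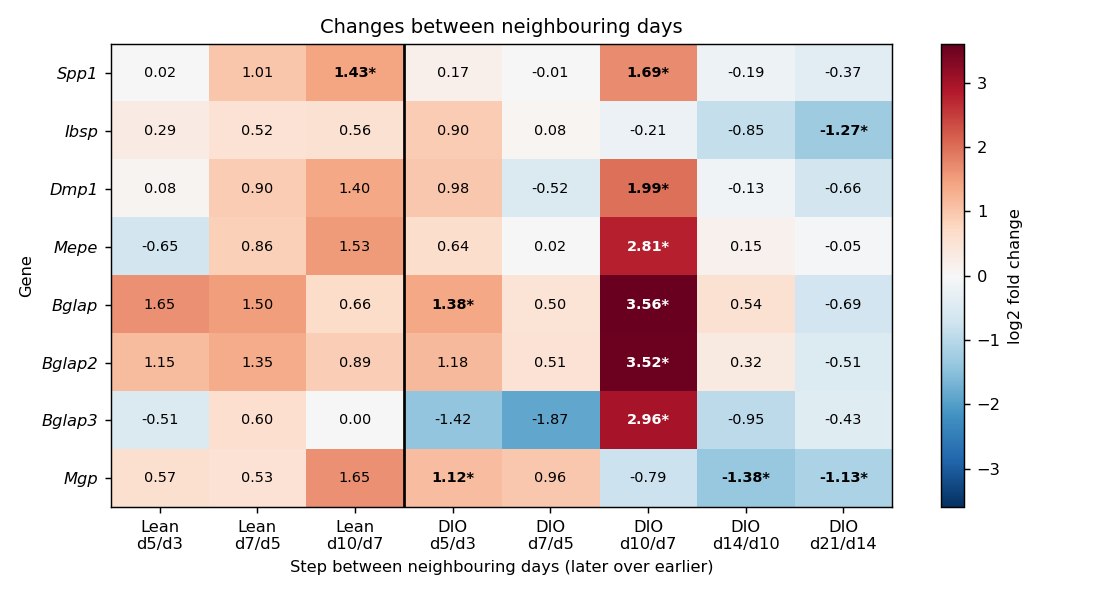
log2 fold changes of the 8 genes (rows) between neighbouring days (columns, later over earlier), lean left of the line and DIO right of it, with red for higher and blue for lower. Asterisks mark calls of edgeR at an adjusted p under 0.05, of which 6 fall in the DIO step from d7 to d10, with Bglap at 3.56 and Mgp uncalled at -0.79.

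Over the whole DIO course, from d3 to d21, 7 of 8 members changed, 5 higher and 2 lower, against 45.3% of all genes called, 23.5% higher and 21.8% lower. Bglap rose 39.2-fold (5.29 ± 0.37, edgeR adjusted p = 1.583e-07), Bglap2 32.4-fold (5.02 ± 0.36, edgeR adjusted p = 1.916e-07) and Mepe 11.8-fold (3.56 ± 0.26, edgeR adjusted p = 1.916e-07). Dmp1 rose 3.17-fold (1.66 ± 0.38, edgeR adjusted p = 0.00200) and Spp1 2.46-fold (1.30 ± 0.33, edgeR adjusted p = 0.00426). Ibsp fell 2.56-fold (-1.36 ± 0.40, edgeR adjusted p = 0.00982) and Mgp 2.32-fold (-1.22 ± 0.26, edgeR adjusted p = 0.00120). The groups of d3 and d21 did not overlap in any of the 8 members, which held for 55% of all genes. A test for any difference among days called all 8 members in DIO callus, against 59.1% of all genes, and 6 in lean callus, against 19%, without Ibsp and Bglap3.

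Diet was compared on each of the first 4 days. On d3 no member passed, and 0% of all genes did. Mepe had the only unadjusted p under 0.05, at -1.18 ± 0.29 (log2, DIO over lean; edgeR adjusted p = 0.135), and DESeq2 called it (adjusted p = 0.00187). The groups did not overlap for 2 members, a share of the set near the 20.8% of all genes without overlap. The members were Mepe, with DIO lower, and the barely counted Bglap3, with DIO higher. On d5 none of the 7 members tested passed, against 1.08% of all genes, 0.134% higher and 0.948% lower. Bglap had a log2 fold change of -1.66 ± 0.34, Bglap2 of -1.57 ± 0.36 and Mgp of 0.54 ± 0.12 (edgeR adjusted p = 0.0675, 0.0837 and 0.0852). These 3 were the members past an unadjusted p of 0.05, DESeq2 called them, and they were the 3 whose groups did not overlap, against 23.2% of all genes. Leaving out single libraries gave 0 to 3 called members on this day.

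Day 7 was the day on which members were called between diets. Of 7 members tested, 3 were called, 2 lower and 1 higher in DIO callus, against 2.32% of all genes, with 0.92% lower and 1.4% higher. The 2 lower members were the near-identical Bglap and Bglap2, which are not independent of each other. Bglap was 6.23-fold lower in DIO callus (-2.64 ± 0.39, edgeR adjusted p = 0.0156), Bglap2 5.27-fold lower (-2.40 ± 0.40, edgeR adjusted p = 0.0211) and the summed copies 5.67-fold lower (-2.50 ± 0.40, edgeR adjusted p = 0.0195). Bglap remained past the threshold whichever of the 6 libraries was left out (edgeR adjusted p up to 0.0482), whereas Bglap2 was lost without the first or second library of either diet (up to 0.0768). Mgp was 1.95-fold higher in DIO callus (0.96 ± 0.18, edgeR adjusted p = 0.0301), a call lost without any lean library or the first DIO library (up to 0.192) and in the fit of all 30 libraries (0.130).

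Among the SIBLING genes on d7, Dmp1 had a log2 fold change of -0.84 ± 0.27, Mepe of -0.71 ± 0.18 and Spp1 of -0.56 ± 0.30, with edgeR adjusted p of 0.153, 0.0744 and 0.405. DESeq2 called Dmp1 and Mepe lower as well. Ibsp stood at 0.36 ± 0.31 (edgeR adjusted p = 0.628). The groups did not overlap for 5 members, Dmp1, Mepe, Bglap, Bglap2 and Mgp, against 22.1% of all genes. Bglap3 did not pass the filter on low counts on d5 and d7.

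Markers of other cells moved on d7 too. All 7 osteoclast markers tested were lower in DIO callus (median log2 fold change -1.30), as were 4 of 8 macrophage markers (-0.92), while 2 of 10 chondrocyte markers, Sox9 and Matn3, were higher (1.62). Of 12 osteoblast and osteocyte markers tested, 1 was lower, the osteocyte gene Sost (-1.65 ± 0.22, edgeR adjusted p = 0.0119), and Col1a1, the main collagen of bone, stood at -0.35 ± 0.29 (edgeR adjusted p = 0.606). Summed osteoclast markers ran from 4182 to 5188 CPM in lean and from 1531 to 2261 CPM in DIO callus, and summed chondrocyte markers from 6536 to 18788 and from 17489 to 39748 CPM. Of the other lists, 1 of 3 adipocyte markers tested was lower, and none of 7 erythroid and marrow, 7 skeletal muscle or 6 smooth muscle and pericyte markers was called. The part of these cells in the differences of osteocalcin and Mgp was not tested.

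On d10 no member was called between diets, and 0% of all genes were. With 3 libraries per diet and no gene called at all, this does not show that the diets were alike. The log2 fold changes for DIO over lean were 0.26 ± 0.31 for Bglap, 0.23 ± 0.31 for Bglap2, 0.57 ± 0.29 for Mepe, -0.24 ± 0.35 for Dmp1, -0.28 ± 0.29 for Spp1 and -0.40 ± 0.29 for Ibsp. Mgp had the only unadjusted p under 0.05 (-1.45 ± 0.50, edgeR adjusted p = 0.686), and DESeq2 called no member. The lean mean of Mgp on this day rested on the first library, rich in chondrocyte markers, with 2988 CPM against 1262 and 679 CPM in the others and 397 to 724 CPM in DIO callus. The groups did not overlap for 0 of 8 members and for 14.2% of all genes, which for so few members are near each other. Averaged over d3 to d10 no member was called by edgeR's adjusted p, against 0% of all genes. Bglap and Bglap2 had an unadjusted p under 0.05 and were called by DESeq2. No share of all genes was counted for either measure.

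**Figure D3:**
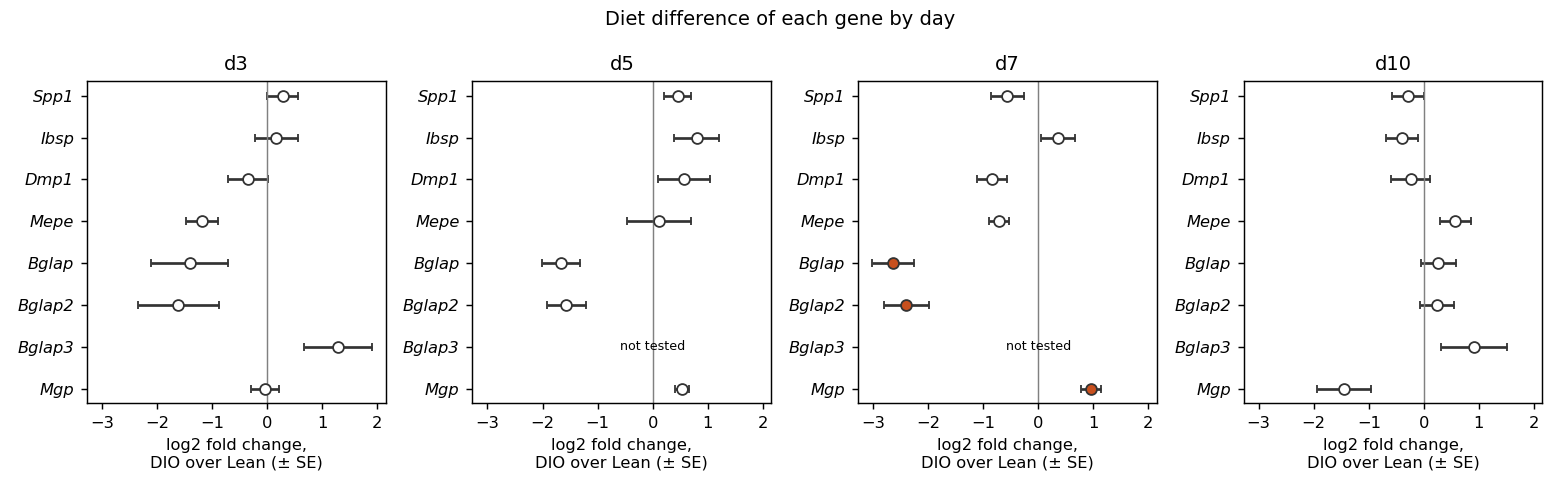
log2 fold change of DIO over lean callus with its standard error for each gene on d3, d5, d7 and d10, where points left of the line were lower in DIO callus. Filled points passed edgeR's adjusted p of 0.05, which only Bglap, Bglap2 and Mgp did, on d7.

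The change of the diet difference from d7 to d10 was tested in the 24 libraries of d3 to d10. It was called for 2 of 8 members, against 5.07% of all genes, 1.7% higher and 3.37% lower. For Bglap the log2 difference changed by 2.92 ± 0.79 (edgeR adjusted p = 0.0363), from lower in DIO callus on d7 to overlapping ranges on d10. This call was lost in 8 of the 24 fits that left out 1 library, namely those without the first or second lean d7 library, the first lean d10 library, the first or second DIO d7 library or any DIO d10 library (edgeR adjusted p up to 0.115), with values from 2.50 to 3.24. The sum of the copies gave 2.76 ± 0.82 (edgeR adjusted p = 0.0518). Bglap was also not called in a test of any change of the diet difference among d3 to d10 (edgeR adjusted p = 0.154). That test called 1 of 8 members, Mgp (edgeR adjusted p = 0.0415), against 1.65% of all genes. It called no member with the replicate number as a block or, among fits leaving out 1 library, without the first lean d5 library. From d7 to d10 the difference for Mgp changed by -2.42 ± 0.50 (edgeR adjusted p = 0.00857). This passed in all 24 fits that left out 1 library, with values from -2.79 to -1.65. The value nearest to 0, -1.65, was that without the first lean d10 library, rich in chondrocyte markers. Of the marker lists, 6 of 10 chondrocyte genes changed in the direction of Mgp (median -3.88) and 7 of 8 osteoclast genes in that of Bglap (1.44), which was not tested as a source of either.

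Osteocalcin and Mgp are set against each other library by library for this reason. The ratio of Mgp to the summed osteocalcin copies ran from 0.574 to 1.99 in lean and from 8.64 to 14.9 in DIO callus on d7. Its lack of overlap follows from the opposite differences of the genes on that day and is not a further result. On d10 it ran from 0.518 to 5.31 and from 0.383 to 0.703. On d21 in DIO callus it was between 0.0674 and 0.143.

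**Figure D4:**
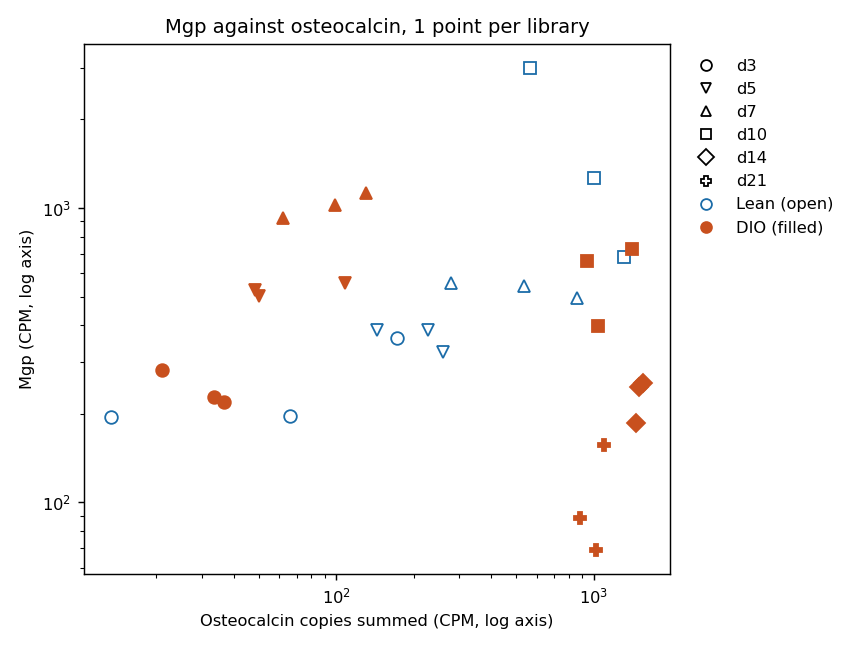
Mgp against the 3 osteocalcin copies summed, both in CPM on log axes, with 1 point per library (shape for day, open for lean and filled for DIO). DIO libraries of d7 lie at upper left, with Mgp of 928 to 1127 CPM over osteocalcin of 62.3 to 130 CPM, and DIO libraries of d21 at lower right.

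Genes that act on these proteins were counted from fixed lists. Of 9 kinases, phosphatases and proteases of SIBLING proteins, 5 rose in lean callus from d3 to d10, against 15.2% of all genes, among them Fam20c, the secretory kinase that phosphorylates the family (3.12 ± 0.42, edgeR adjusted p = 5.901e-04), and the osteoclast phosphatase Acp5 (4.45 ± 0.22, edgeR adjusted p = 4.334e-07), which dephosphorylates osteopontin. In DIO callus 4 of the 9 rose and 3 fell from d7 to d10, against 6.01% and 7.01% of all genes. Acp5 (3.46 ± 0.32, edgeR adjusted p = 3.804e-06), Fam20c (1.44 ± 0.27, edgeR adjusted p = 0.00155) and Phex, a peptidase that cuts SIBLING peptides (1.80 ± 0.42, edgeR adjusted p = 0.00799), were among the risers. Between diets on d7, 1 of the 9 differed, against 2.32% of all genes, and this was Acp5, which was lower in DIO callus (-1.45 ± 0.26, edgeR adjusted p = 0.0256). Fam20c stood at 798 CPM in the first lean d10 library and at 235 and 242 CPM in the others.

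Of the receptors, 9 of 10 were tested. In DIO callus 4 of them rose from d7 to d10, against 6.01% of all genes, led by Itgb3, the beta chain of the osteopontin receptor on osteoclasts (1.92 ± 0.31, edgeR adjusted p = 5.378e-04), and none fell. In lean callus 2 of the 9 rose from d3 to d10, near the 15.2% of all genes called higher, namely Itgb3 (1.11 ± 0.27, edgeR adjusted p = 0.00955) and its partner Itgav (0.57 ± 0.18, edgeR adjusted p = 0.0313). None of the 9 was called between diets on d7, where the median log2 fold change was -0.32. The receptor gene Gprc6a, proposed to bind osteocalcin, had 0 counts in all 30 libraries.

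Of 6 genes of the vitamin K cycle and carboxylation, 5 were tested. Vkorc1, the epoxide reductase that warfarin inhibits, was the 1 that differed between diets on d7, against 2.32% of all genes, being higher in DIO callus (0.94 ± 0.20, edgeR adjusted p = 0.0463). Vkorc1 was also called higher in lean callus on d10 than on d3 (1.20 ± 0.33, edgeR adjusted p = 0.0191), with 59.3, 33.1 and 21.0 CPM against 15.5, 13.1 and 22.2 CPM. The highest of these was the first d10 library, rich in chondrocyte markers, and the third lay within the range of d3. Ggcx, the carboxylase itself, had too few counts for the test, with at most 0.537 CPM in any library. Whether the annotation or the counting kept its reads out was not tested, so this value is not read as absence of the enzyme. The Gla gene Ucma, a cartilage product, was higher in DIO callus on d7 (4.48 ± 0.34, edgeR adjusted p = 0.00180), as Mgp was, with 176, 195 and 270 CPM against 6.04, 8.12 and 14.6 CPM in lean callus. Gas6 and Pros1, which encode other Gla proteins, had log2 fold changes of -0.17 ± 0.21 and 0.26 ± 0.21.

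Across the 30 libraries the set fell into groups by likeness of log2 CPM. These libraries share diets and days, so the values of Pearson's r are descriptions. Spp1, Dmp1, Mepe, Bglap and Bglap2 ran together, with r from 0.78 between Spp1 and Bglap to 0.88 between Spp1 and Dmp1, apart from the near-identical Bglap and Bglap2 at 1.00 to 2 decimals. Ibsp and Mgp formed the other pair, with r of 0.82, and Mgp had r of 0.00 with Bglap. Ibsp had r of 0.29 with Dmp1 and -0.09 with Mepe, its neighbours on chromosome 5, and 0.15 with Spp1. Bglap3 was within -0.12 to 0.23 of every other member.

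**Figure D5:**
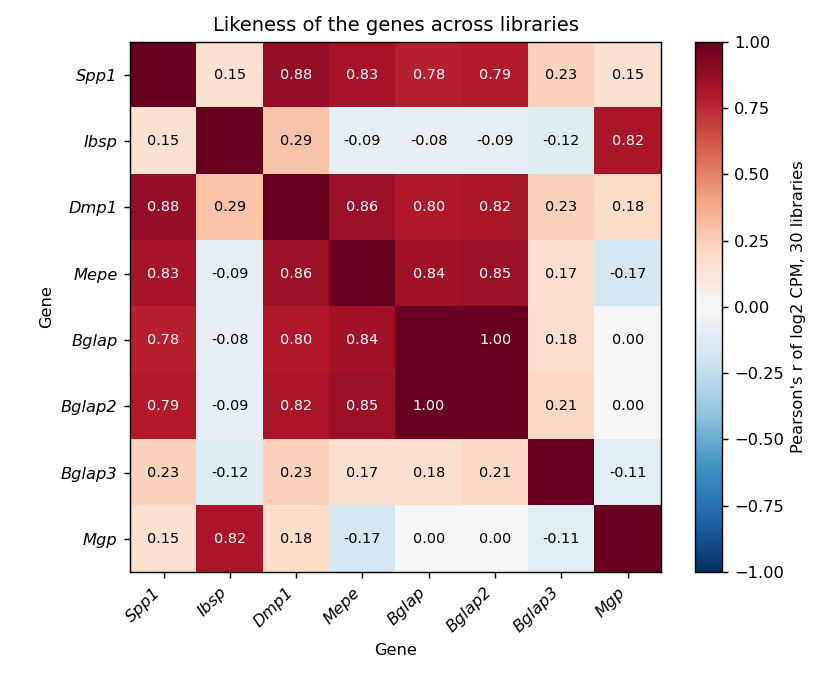
Pearson's r of log2 CPM over 30 libraries for each pair of the 8 genes, red for positive and blue for negative. The block of Spp1, Dmp1, Mepe, Bglap and Bglap2 lies at 0.78 or above, and Ibsp pairs with Mgp at 0.82.

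Among 14728 genes with a mean of at least 1 CPM, the most alike gene was named for each member by the highest r. For Bglap this was Ackr4, a scavenging chemokine receptor (r = 0.96, Spearman's rho = 0.95), and for Bglap2 the peptidase gene Cpq (0.95 and 0.94). For Ibsp it was Panx3, a channel protein of skeletal cells (0.96 and 0.95), followed by Plcd1 (0.94 and 0.93). For Mgp it was Ccdc80 (0.95 and 0.96), followed by the retinol carrier Rbp4 (0.94 and 0.94). For Dmp1 it was Ank, which exports pyrophosphate (0.94 and 0.93), for Mepe Atp6ap1 (0.93 and 0.91) and for Spp1 the metallothionein gene Mt3 (0.91 and 0.88). Bglap3 reached 0.63 at most, with Rhot2.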

How the data were processed

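RNA of whole fracture callus was measured in 30 libraries made with a stranded, poly(A)-selecting kit. Per the labels and the methods, the authors demultiplexed with bcl2fastq, trimmed with BBDuk, aligned to GRCm38 with HISAT2 2.1.0, ran HTSeq for the read counts of each gene, and deposited these raw counts without normalization. The HTSeq version, strand option, treatment of multiply mapped reads and annotation are not given in the sources used here. Groups came from the sample labels, with 3 mice each. Libraries of 1 group were checked for duplicates, and the chi-square per degree of freedom was at least 13.6 in all 30 pairs.

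Counts were tested in R 4.3.3 with edgeR 4.0.16 (TMM, filterByExpr, two-sided quasi-likelihood F-test, Benjamini-Hochberg adjustment over all genes, threshold 0.05). Lean days were fitted in 12 libraries, DIO days in 18, diets in the 6 libraries of each day and their change in 24. CPM used TMM factors over 30 libraries (0.779 to 1.09), and log2 CPM a prior count of 2. CPM per kb divides by the length of 1 GENCODE M21 transcript per gene. Python 3.11.15 with pandas 2.3.3 was used for levels and sequences. The fits were tested on simulated data. Alternatives were DESeq2 1.42.0, RLE factors, no filter but 1 count, the replicate number as a block, all 30 libraries in 1 fit, the osteocalcin copies summed and each library left out. Members are named in every comparison, and at most 3 genes of any other list, those with the smallest adjusted p. For likeness, up to 2 genes per member were eligible. Sost, Col1a1, Fam20c at d10, Gas6, Pros1 and the genes at or near 0 were named after their values were seen. Members and lists were chosen with earlier results of these data known. The floor for a count of 0 covers counting error only, whereas SDs and SEs include the spread between mice.

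The replicate numbers mark different mice. Same-numbered libraries deviated together (every r over 0.1) in 1 of 14 pairs of groups, lean d7 against d5 (r = 0.277, 0.204 and 0.24), where the block changed no call of a member.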

Additional observations from a re-analysis of the deposited data

Results flagged for a closer look

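The diet difference of 2 genes changed from d7 to d10 in a test of that change itself. For Bglap the log2 fold change of DIO over lean callus was -2.64 ± 0.39 on d7 and 0.26 ± 0.31 on d10, a change of 2.92 (edgeR adjusted p = 0.0363). DIO libraries held 27.7 to 54.8 CPM on d7 and 413 to 574 CPM on d10, and lean libraries 124 to 379 and 219 to 527 CPM. The call for Bglap was lost in 8 of the 24 fits that left out 1 library, and the summed copies were not called (edgeR adjusted p = 0.0518). Nor was Bglap called in the test of any change among d3 to d10 (edgeR adjusted p = 0.154). For Mgp the log2 fold change was 0.96 ± 0.18 on d7 and -1.45 ± 0.50 on d10, a change of -2.42 (edgeR adjusted p = 0.00857). DIO libraries held 928 to 1127 CPM on d7 and 397 to 724 CPM on d10, and lean libraries 494 to 554 and 679 to 2988 CPM. The highest of these was the first lean d10 library, rich in chondrocyte markers, without which the change was -1.65 and still past the threshold.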

How the results depend on the processing

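Among the changes of single members called in the main fits, no direction reversed under any alternative. Uncalled changes were not checked in this way. The share of all genes called was not counted for any alternative, so the numbers of members below have no background. DESeq2 moved the number of called members to 1 for DIO against lean on d3, 3 on d5, 5 on d7 and 2 over d3 to d10, and to 1 for lean d7 against d5, 4 for lean d10 against d7 and 1 for DIO d7 against d5. Without a filter the number was 1 for the diets on d3, 2 on d5 and 2 for lean d10 against d7. In a fit of all 30 libraries it was 4 for lean d10 against d7, 0 for DIO d5 against d3 and 0 for DIO d14 against d10. With the osteocalcin copies summed it was 1 for DIO d5 against d3 and 1 for the change of the diet difference from d7 to d10. With the replicate number as a block it was 1 for the diets on d3, 2 for lean d10 against d7, 1 for DIO d5 against d3 and 0 for the diet difference among d3 to d10. Under it Bglap was no longer called for DIO d5 against d3 (edgeR adjusted p = 0.0547). Otherwise the block changed no count by over 1.5 times. Over the pairs of groups, r between same-numbered libraries ran from -0.399 to 0.32. RLE factors changed no such count, and 92 of 111 counts stayed within 1.5 times of the main one.

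Leaving out each library gave ranges of called members. For the diets these were 0 to 0 on d3, 0 to 3 on d5, 1 to 3 on d7, 0 to 0 on d10 and 0 to 2 over d3 to d10. In lean callus they were 0 to 0 for d5 against d3, 0 to 0 for d7 against d5, 0 to 2 for d10 against d7, 5 to 7 for d10 against d3 and 4 to 7 for any day. In DIO callus they were 0 to 3 for d5 against d3, 0 to 0 for d7 against d5, 5 to 7 for d10 against d7, 0 to 1 for d14 against d10, 1 to 2 for d21 against d14, 7 to 8 for d21 against d3 and 7 to 8 for any day. For the change of the diet difference they were 1 to 3 from d7 to d10 and 0 to 1 among d3 to d10. Of 486 values of single genes, 47 were no longer past the threshold. The cause of these shifts was not tested. Depth limited Bglap3, which had 0 to 44 counts per library.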
